A study of Homo sapiens with 6 samples.

Results

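Aminoacyl-tRNA synthetases are the enzymes that join each amino acid to its tRNA, and their mRNAs were followed in A549 cells depleted of BAP18. The set was fixed by gene name and holds 36 genes of the 35474 listed in the deposited count table, 20 for cytosolic enzymes and 16, with names ending in 2, for mitochondrial enzymes. All 36 passed the filter on low counts, as did 20776 genes in all. A549 is an established human lung adenocarcinoma cell line. Cultures were transfected with siRNA against BAP18 (siBAP18, n = 3) or with nonspecific siRNA (siCtrl, n = 3) and collected after 48 h for sequencing of their poly(A) RNA. The labels call the 3 cultures of a group biological replicates, and do not say which siRNA against BAP18 was used. Total counts were 53657450, 46035635 and 47099816 for siCtrl replicates 1 to 3. For siBAP18 replicates 1 to 3 they were 53996860, 56548620 and 42094524. BAP18, listed as C17orf49, was at 13.97, 16.1 and 15.1 CPM (counts scaled to library size) in siCtrl replicates 1 to 3 and at 2.21, 2.35 and 2.66 in siBAP18 replicates 1 to 3, so the groups were separated as labelled. Genes of the mitochondrial genome took 7.43%, 7.08% and 6.86% of counts with siCtrl but 5.74%, 5.27% and 6.14% with siBAP18, and the part of this difference in the results was not tested.

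The A549 label was checked against markers. KRT8, an epithelial keratin, was at 13436 CPM on average in siCtrl cells, and EPCAM and CDH1, epithelial adhesion genes, were at 84.8 and 63.9. Of 7 markers of the line, 6 were lower in siBAP18 cells at an adjusted p under 0.05 and the other was not called, where 25.1% of all genes tested were lower. LYZ, a myeloid gene, and VWF, an endothelial gene, averaged 0.263 and 0.0429 CPM in siCtrl cells. Of the other endothelial markers, PECAM1 averaged 0.718 CPM with siCtrl and 0.245 with siBAP18 (called lower), and CDH5 0.286 and 0.619 CPM (called higher). CDH5 had only 8 to 36 counts per library. Its call was lost in at least 1 fit with a library left out (adjusted p up to 0.0938, edgeR). PTPRC, CD3E and DCN were not analysed here. The fibroblast gene COL1A1 averaged 12.0 ± 0.692 CPM with siCtrl and 9.17 ± 0.718 with siBAP18 (SD, n = 3 each). It was called lower (adjusted p = 0.00124, edgeR). The fibroblast genes COL3A1 and LUM averaged only 0.456 and 0.107 CPM in siCtrl cells.

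Synthetases pair each amino acid with its tRNAs in an ATP-dependent reaction and so set how the genetic code is read. Separate nuclear genes encode the enzymes of the cytosol and of the mitochondrion for most amino acids, but GARS and KARS each supply both compartments. In the cytosol, EPRS, IARS, LARS, MARS, QARS, RARS, KARS and DARS are held with the scaffold proteins AIMP1, AIMP2 and EEF1E1 in the multi-tRNA synthetase complex, whereas the other enzymes act outside it. Many cytosolic synthetase genes are known targets of ATF4, the transcription factor of the integrated stress response, which is made when the initiation factor eIF2 is phosphorylated.

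More synthetase mRNAs were higher than lower after BAP18 knockdown, in both compartments, and all changes were modest. Calls were made where the adjusted p was under 0.05 in edgeR's quasi-likelihood test over all genes with Benjamini-Hochberg adjustment. By this rule 18 members were higher, 5 were lower and 13 were not called. Over all 20776 genes tested, 49.6% were called, 24.5% higher and 25.1% lower. Among the 14222 genes whose average log2 CPM was 1 or more, as it was for every member, these shares were 29.1% and 31.8%. The median log2 fold change (siBAP18 over siCtrl) was 0.21 for the members and 0.0010 for all genes tested. None of the 36 reached an absolute log2 fold change over 1 with an adjusted p under 0.05, a rule that 8.46% of all genes met (4.72% higher and 3.74% lower). In 20 members every siBAP18 library lay above every siCtrl library, and in 7 every siBAP18 library lay below, against 27.6% and 29% (together 56.6%) of all genes tested. RNA from whole cultures does not separate fewer cells that express a gene from less of its RNA per cell.

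**Figure D1:**
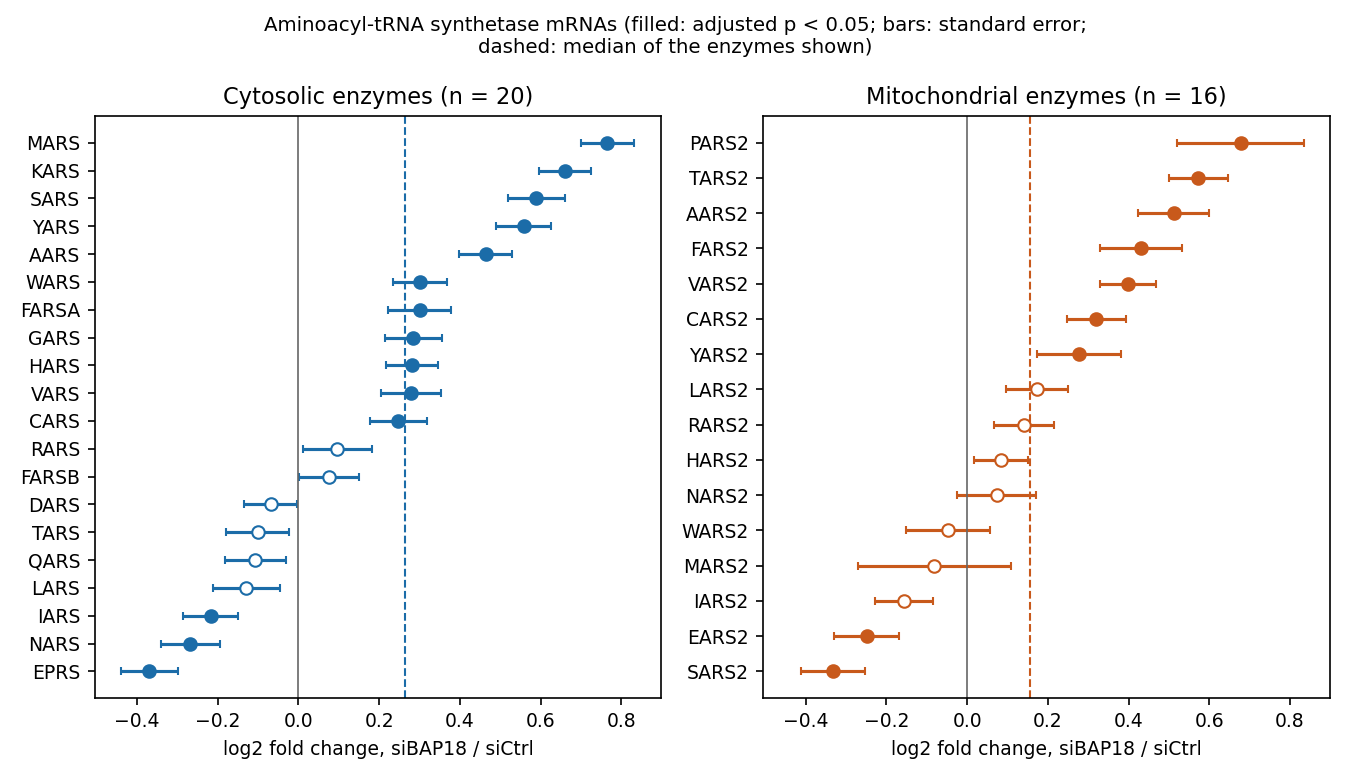
Log2 fold change (siBAP18 over siCtrl, horizontal axis) of each cytosolic (left) and mitochondrial (right) synthetase, with the standard error as a bar, filled points for an adjusted p under 0.05 and a dashed line at the median of the panel. The cytosolic genes run from EPRS at −0.37 to MARS at 0.77, and the mitochondrial genes from SARS2 at −0.33 to PARS2 at 0.68.

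Among the cytosolic enzymes, 11 of 20 were higher (55%) and 3 were lower (15%), with a median log2 fold change of 0.26. Of all genes tested, 24.5% were higher and 25.1% lower. The enzyme with the largest rise was MARS, which charges methionine, including the initiator tRNA. The gene spans positions 57475445 to 57517569 of chromosome 12 (GRCh38, + strand). It was at 67.7, 68.1 and 67.2 CPM in siCtrl replicates 1 to 3 and at 120.8, 110.2 and 114.1 in siBAP18 replicates 1 to 3. The groups were far apart relative to their spread, with a log2 fold change of 0.77 (standard error [SE] 0.0659, edgeR adjusted p = 5.20e-10), which is 1.70-fold. The exons of DDIT3, the stress-response gene for CHOP, cover 355 bases of the exonic sequence of MARS on the opposite strand, 5.05% of the exonic bases of MARS but 28.04% of those of DDIT3. DDIT3 itself averaged 11.3 ± 0.795 CPM with siCtrl and 172.9 ± 14.1 with siBAP18 (SD over 3 libraries), or 3.94 higher on the log2 scale (adjusted p = 6.54e-22, edgeR). The libraries were made to keep strand, but use of strand in counting is not given in the sources used here, and the part of these shared bases in the MARS value was not tested. If DDIT3 reads were spread evenly over its exons, the shared bases would hold 45.3 CPM of its rise, close to the whole rise of 47.4 CPM in the MARS mean. If strand was not used and reads in shared bases were credited to MARS, these could not be told apart. Whether such reads were counted or dropped is not given in the sources used here. Every MARS value given here carries this limit.

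KARS, the lysine enzyme of both compartments, had the next largest rise in the cytosolic set. It is on chromosome 16 from 75627474 to 75648643 (− strand). KARS was at 124.1, 132.3 and 127.6 CPM in siCtrl replicates 1 to 3 and at 206.2, 198.7 and 202.2 in siBAP18 replicates 1 to 3, a log2 fold change of 0.66 (SE 0.0645, edgeR adjusted p = 4.75e-09). TERF2IP, a telomere protein gene, overlaps 176 bases (4.33%) of its exons on the opposite strand and rose by 0.75 (adjusted p = 1.01e-09, edgeR). On the same even spread the shared bases would hold 2.65 CPM of the rise of TERF2IP, against a rise of 74.4 CPM in the KARS mean. SARS, the serine enzyme on chromosome 1 from 109213918 to 109238169 (+ strand), was at 184.3, 188.0 and 190.5 CPM in the siCtrl libraries and at 270.0, 265.8 and 311.2 in the siBAP18 libraries. Its log2 fold change was 0.59 (SE 0.0701, edgeR adjusted p = 1.25e-07), and siBAP18 replicate 3 was the highest library. YARS (log2 fold change 0.56, tyrosine) and AARS (0.46, alanine) followed, and neither had overlapping groups. AARS was the cytosolic member with the highest CPM, at 317.4 ± 8.16 CPM in siCtrl cells and 437.8 ± 21.4 in siBAP18 cells (SD, n = 3 each). The other rises lay between 0.25 and 0.30. They were those of CARS (cysteine), VARS (valine), HARS (histidine), GARS (glycine), WARS (tryptophan) and FARSA, the α subunit of the phenylalanine enzyme. FARSB, which encodes the β subunit of the same enzyme, was at 22.8, 21.9 and 24.3 CPM in siCtrl and at 23.5, 25.5 and 23.6 in siBAP18, with overlapping groups (log2 fold change 0.08, adjusted p = 0.428, edgeR).

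The 3 cytosolic genes that fell were EPRS, NARS and IARS. EPRS, on chromosome 1 from 219968601 to 220046658 (− strand), encodes the bifunctional enzyme for glutamate and proline. It was at 94.9, 97.7 and 98.1 CPM in the siCtrl libraries and at 74.6, 82.1 and 68.1 in the siBAP18 libraries. Every siBAP18 library was below every siCtrl library, and the log2 fold change was −0.37 (SE 0.0712, edgeR adjusted p = 1.12e-04). NARS, the asparagine enzyme (chromosome 18 from 57600656 to 57622213, − strand), was at 159.7, 160.8 and 168.2 CPM and then at 131.1, 151.6 and 123.0. Its siBAP18 libraries were all lower but spread widely, and the log2 fold change was −0.27 (SE 0.0733, edgeR adjusted p = 0.00362). NARS was not called in limma without a filter (−0.26, adjusted p = 0.120). IARS, the isoleucine enzyme (chromosome 9 from 92210207 to 92293756, − strand), was at 97.2, 96.0 and 92.2 CPM and then at 84.2, 85.8 and 75.4. Its log2 fold change of −0.22 (adjusted p = 0.00999, edgeR) was not called without siCtrl replicate 1 (−0.21, adjusted p = 0.0562).

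**Figure D2:**
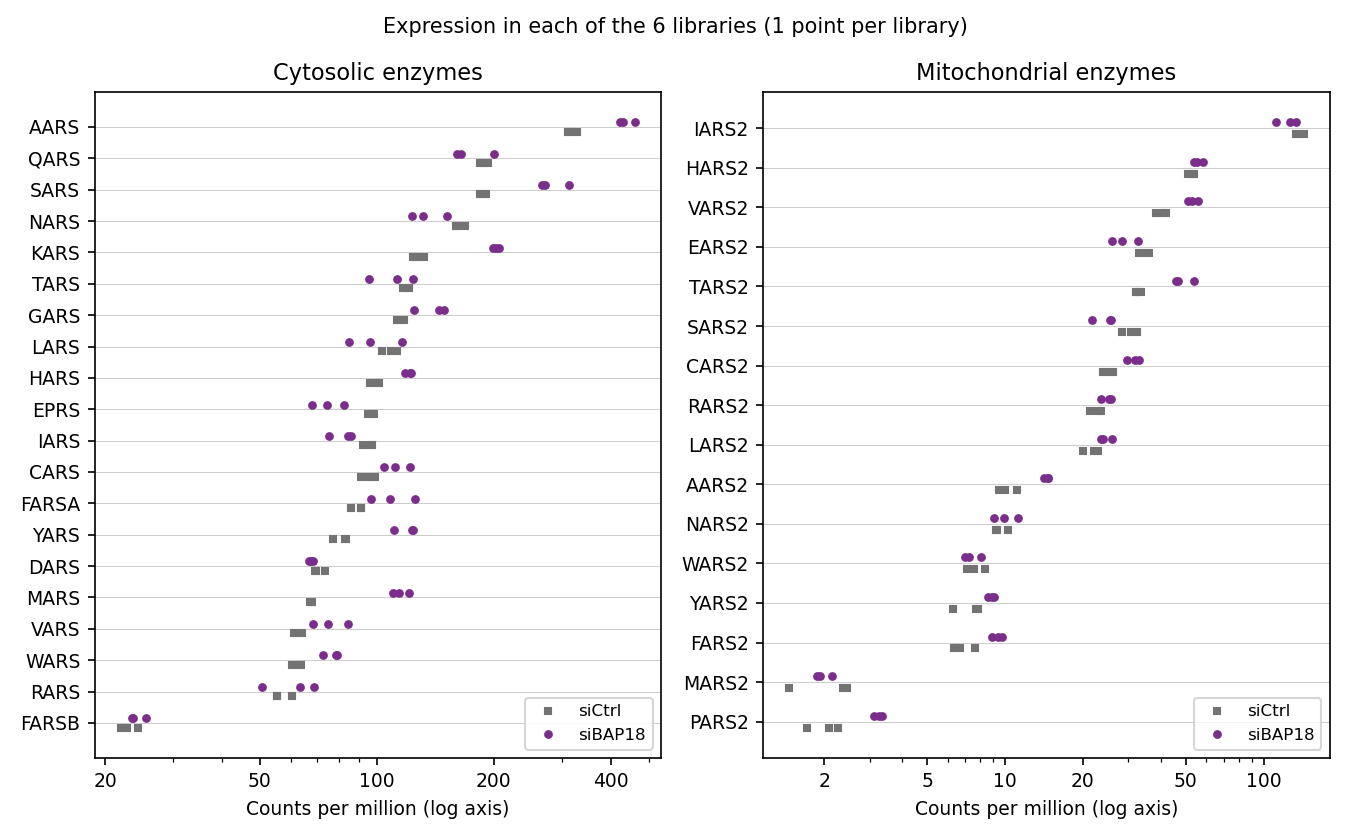
CPM on a log axis for each member, with 1 point per library (gray squares, siCtrl; purple circles, siBAP18) and genes ordered by their siCtrl mean. In MARS, KARS, SARS and TARS2 the 3 siBAP18 points stand clear of the siCtrl points to the right, whereas in EPRS and SARS2 they stand to the left.

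Enzymes of the multi-tRNA synthetase complex and those outside it were counted separately. Of the 8 complex enzymes, 2 rose (MARS and KARS), 2 fell (EPRS and IARS) and 4 were not called, with a median log2 fold change of −0.088. These shares of 25% higher and 25% lower are near those of all genes tested (24.5% and 25.1%). The uncalled genes were DARS (aspartate, −0.07), QARS (glutamine, −0.11), LARS (leucine, −0.13) and RARS (arginine, 0.10). Without siBAP18 replicate 3, QARS was called lower (−0.21, adjusted p = 0.00132, edgeR) and RARS higher (0.21, adjusted p = 0.00369, edgeR). Without siBAP18 replicate 2, LARS was called lower (−0.26, adjusted p = 0.00145, edgeR), and without siCtrl replicate 1 only EPRS of the complex enzymes was lower. Of the 12 cytosolic enzymes outside the complex, 9 rose, 1 fell (NARS) and 2 were not called (FARSB and TARS, the threonine enzyme), with a median of 0.28. TARS was also called lower without siBAP18 replicate 2 (−0.19, adjusted p = 0.0196, edgeR), which made 2 lower outside the complex. In a fit with offsets for GC content and gene length, chosen after seeing the data, 4 complex enzymes were higher and 2 lower, and outside the complex 9 were higher and 1 lower. That fit called more genes in general, 54.6% of its 16463 against 49.6% of 20776 in the main fit. DARS was at 69.8, 73.6 and 69.4 CPM in the siCtrl libraries and at 67.7, 68.5 and 66.7 in the siBAP18 libraries, a difference of −0.07 (adjusted p = 0.406, edgeR), although these narrow ranges did not overlap. Of the scaffolds, AIMP2 rose by 0.44 (adjusted p = 2.31e-05, edgeR), EEF1E1 fell by 0.31 (adjusted p = 0.0110, edgeR) and AIMP1 was at −0.16 (adjusted p = 0.0789, edgeR). EEF1E1 was not called without siCtrl replicate 3 (−0.26, adjusted p = 0.0705, edgeR) or with the GC and length offsets (−0.03, adjusted p = 0.821, edgeR). With these offsets AIMP2 was at 0.26 and AIMP1 was called higher at 0.17. Between the catalytic folds, class I enzymes had 8 of 18 higher and 2 lower (median 0.16), and class II enzymes had 10 of 17 higher and 2 lower (median 0.28). EPRS, which joins both folds, was left out of this count. The 2 lower calls of class I, IARS and EARS2, became 1 without siCtrl replicate 1, siCtrl replicate 3 or siBAP18 replicate 1, 4 without siBAP18 replicate 2 and 0 in limma without a filter. No test was made of the difference between these groups of genes.

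Among the mitochondrial enzymes, 7 of 16 were higher (43.8%) and 2 were lower (12.5%), with a median log2 fold change of 0.16, beside the same 24.5% and 25.1% of all genes tested. These mRNAs were also less abundant. Per length, the median over the set was 3.70 ± 0.354 RPKM (reads scaled to gene length and library size, SD over n = 3 libraries) in siCtrl cells, against 17.04 ± 0.363 for the cytosolic set. PARS2, the mitochondrial proline enzyme on chromosome 1 from 54756898 to 54764514 (− strand), was among the least expressed members. It was at 2.26, 2.09 and 1.71 CPM in the siCtrl libraries, from 120, 97 and 80 counts, and at 3.34, 3.12 and 3.26 CPM in the siBAP18 libraries, from 182, 182 and 132 counts. Its log2 fold change of 0.68 was the largest of the set but carried the largest error among the called genes (standard error 0.157, adjusted p = 8.00e-04, edgeR). It was 0.36 in limma on log2(RPKM + 1), a scale that understates changes of low genes, and was still called there (adjusted p = 0.00354). TARS2, the threonine enzyme on chromosome 1 from 150487364 to 150507609 (+ strand), was at 32.2, 32.6 and 33.6 CPM and then at 46.7, 45.8 and 54.0. Here the siBAP18 libraries were well above siCtrl, with a log2 fold change of 0.57 (SE 0.0740, edgeR adjusted p = 4.62e-07). On the log2(RPKM + 1) scale TARS2, at 0.52, stood above PARS2. AARS2 (0.51, alanine), FARS2 (0.43, phenylalanine), VARS2 (0.40, valine) and CARS2 (0.32, cysteine) rose as well, and 21.99% of the exonic bases of VARS2 are shared with GTF2H4 on the same strand (0.18, not called). YARS2, the tyrosine enzyme, rose by 0.28 (adjusted p = 0.0285, edgeR), but by 0.18 when siCtrl replicate 3 was left out (adjusted p = 0.214, edgeR). The call was also lost without siBAP18 replicates 1 and 2 (adjusted p = 0.0726 and 0.0527, edgeR). The log2 fold change there stayed near its size, at 0.27 and 0.26.

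The 2 mitochondrial genes that fell were SARS2 and EARS2. SARS2, the serine enzyme on chromosome 19 from 38915266 to 38930896 (− strand), was at 32.5, 28.4 and 30.6 CPM in the siCtrl libraries and at 25.5, 21.6 and 25.7 in the siBAP18 libraries. The groups did not overlap, and the log2 fold change was −0.33 (SE 0.0798, edgeR adjusted p = 0.00112). A clone-named gene on the same strand, CTC-360G5.8, shares 46.2% of the exonic bases of SARS2 and had a log2 fold change of −0.31, so the reads of this pair cannot be told apart over that stretch. If the reads of CTC-360G5.8 were spread evenly, the shared bases would hold −4.80 CPM of its change, against −6.24 CPM in the SARS2 mean. EARS2, the glutamate enzyme on chromosome 16 from 23522014 to 23557731 (− strand), was at 34.2, 33.1 and 36.02 CPM and then at 25.9, 28.4 and 32.7. Its siBAP18 replicate 3 almost met the lowest siCtrl library. The log2 fold change was −0.25 (SE 0.0798, edgeR adjusted p = 0.0114). The call was lost without siCtrl replicate 3 (−0.22, adjusted p = 0.0677, edgeR) and without siBAP18 replicate 1 (−0.17, adjusted p = 0.124, edgeR). IARS2 was the member of this set with the highest level, at 33.1 ± 1.51 RPKM in siCtrl cells, and was not called (log2 fold change −0.16, adjusted p = 0.0700, edgeR). WARS2, the tryptophan enzyme, was at 7.11, 8.36 and 7.57 CPM and then at 6.98, 7.26 and 8.09, and NARS2, the asparagine enzyme, at 10.2, 9.27 and 9.26 CPM and then at 9.89, 11.2 and 9.05. Both had overlapping groups, and their log2 fold changes were −0.05 (adjusted p = 0.734, edgeR) and 0.07 (adjusted p = 0.568, edgeR).

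Summed per length, the cytosolic set came to 458.5, 464.3 and 459.9 RPKM in the siCtrl libraries and 549.5, 559.1 and 539.6 RPKM in the siBAP18 libraries. The mitochondrial set came to 108.0, 108.8 and 104.9 RPKM and then to 114.6, 117.2 and 107.3 RPKM. The cytosolic sums were separated between the groups and the mitochondrial sums overlapped on this scale. With TMM scaling of the same values per length, chosen after seeing the data, both sets were separated, the mitochondrial one at 109.0, 107.7 and 105.7 with siCtrl and at 113.7, 113.5 and 111.4 with siBAP18. By the median deposited RPKM over the members, on which the most abundant genes weigh less, only the mitochondrial set was separated. For the cytosolic set it was 17.04 ± 0.363 RPKM with siCtrl and 16.4 ± 1.15 RPKM with siBAP18 (SD, n = 3 each), with overlapping groups. For the mitochondrial set it was 3.82, 3.98 and 3.31 RPKM with siCtrl and 4.36, 4.45 and 4.10 RPKM with siBAP18, without overlap. AARS (70.4 RPKM), SARS (48.8 RPKM) and QARS (40.0 RPKM, not called) had the highest siCtrl means in the cytosolic set.

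Cytosolic and mitochondrial enzymes for the same amino acid were then compared. Of 17 such pairs, both members were higher in 5 and both were lower in 1 (EPRS with EARS2). In 2 pairs they were called in opposite directions, in 5 only the cytosolic gene was called, in 2 only the mitochondrial one and in 2 neither. The ratio of cytosolic to mitochondrial RPKM was taken within each library, which removes the scaling between libraries. For serine, the log2 ratio of SARS to SARS2 was 2.37 ± 0.111 in siCtrl cells and 3.29 ± 0.117 in siBAP18 cells (SD, n = 3 each), a difference of 0.92. The bases that SARS2 shares with CTC-360G5.8 limit this ratio as well, and their part in it was not tested. For methionine, MARS to MARS2 was 3.84 ± 0.421 and then 4.65 ± 0.0550, a difference of 0.81. MARS2 had only 130, 68 and 110 counts in the siCtrl libraries. For proline, the ratio of EPRS to PARS2 went the other way, from 4.38 ± 0.227 to 3.31 ± 0.172. The same was seen for threonine, where TARS to TARS2 went from 1.37 ± 0.0337 to 0.69 ± 0.320. The ratio did not overlap between the groups in 8 pairs (47.1%), higher in 4 and lower in 4, whereas 56.6% of all single genes tested did not overlap. No such share was computed for ratios of other genes, and EPRS and FARS2 each enter 2 pairs. For each of these, the exact permutation test (two-sided) gave p = 0.10, the smallest that 3 against 3 libraries allow (0.2125 adjusted over the 17 pairs), so this test could not have called any pair and the ratios are given as values. AARS with AARS2, RARS with RARS2, IARS with IARS2 and CARS with CARS2 differed by −0.05 to −0.08, and their groups overlapped. HARS and HARS2 share 592 exonic bases on opposite strands, 7.02% of HARS and 17.4% of HARS2. ZMAT2, a zinc finger gene that rose by 0.36 (adjusted p = 3.88e-05, edgeR), shares 152 exonic bases with HARS2 on the same strand. If its reads were spread evenly, these bases would hold 7.09 CPM of its rise, against a rise of 3.13 CPM in the HARS2 mean, so the values of HARS2 and of its ratio to HARS carry this limit, and its part in them was not tested. The ratio within a library does not remove differences in GC content between the enzymes of a pair. With the GC and length offsets the fitted difference stayed at 0.95 for SARS with SARS2 and 0.86 for MARS with MARS2. For NARS with NARS2 it was −0.34 without and −0.33 with them. It moved from −1.05 to −0.73 for EPRS with PARS2 and from −0.67 to −0.41 for TARS with TARS2. For WARS with WARS2 it went from 0.35 to 0.12, for FARSB with FARS2 from −0.36 to −0.02 and for HARS with HARS2 from 0.20 to 0.36. For EPRS with EARS2 it changed sign, from −0.12 to 0.12, and for LARS with LARS2 from −0.30 to 0.03.

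**Figure D3:**
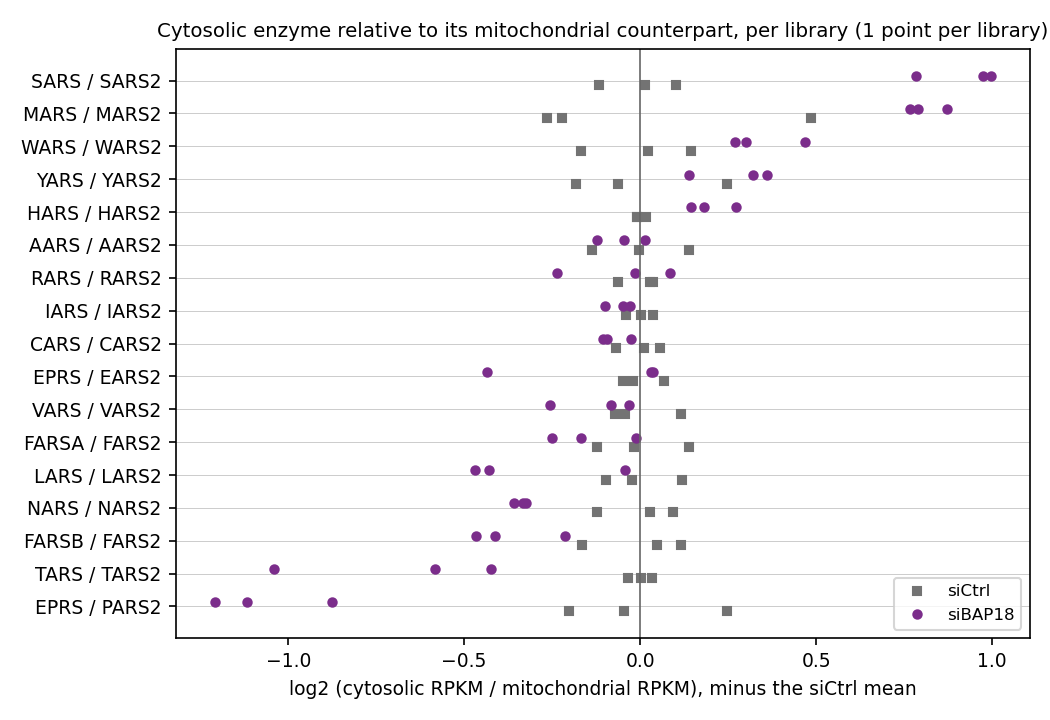
Log2 ratio of the cytosolic to the mitochondrial RPKM for each of the 17 pairs, relative to the siCtrl mean of the pair (horizontal axis), with 1 point per library (gray squares, siCtrl; purple circles, siBAP18). SARS with SARS2 lies farthest to the right at a mean of 0.92, and EPRS with PARS2 farthest to the left at −1.07.

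The cytosolic genes were next set against ATF4. ATF4 mRNA was at 331.6, 313.1 and 340.1 CPM in the siCtrl libraries and at 574.8, 517.5 and 594.5 in the siBAP18 libraries, a log2 fold change of 0.78 (SE 0.0697, edgeR adjusted p = 1.09e-09). Of 13 cytosolic synthetases commonly listed as ATF4 targets, 8 were higher (MARS, SARS, YARS, AARS, WARS, GARS, VARS and CARS), 3 were lower (EPRS, NARS and IARS) and 2 were not called (LARS and TARS). That is 61.5% higher and 23.1% lower, against 24.5% and 25.1% of all genes, with a median of 0.28. Of the 7 not so listed, 3 (42.9%) were higher (KARS, FARSA and HARS), 0 were lower and 4 were not called, with a median of 0.096. The 3 enzymes that fell were all on the list, but QARS, which is not, was called lower without siBAP18 replicate 3 (−0.21) and with the GC and length offsets (−0.23). With the offsets 8 listed enzymes were higher and 2 lower, and 5 unlisted ones were higher and 1 lower. Without siBAP18 replicate 2 the lower calls on the list went from 3 to 5, with LARS and TARS.

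Promoters were read from RefSeq (GRCh38.p14), as the 250 bases before and the 50 bases after the annotated start, which gave windows for 30 of the 36 members. The letters TGATGNAA, the core of the composite element that ATF4 binds with C/EBP proteins, were searched on both strands. They were found for 8 members, 7 cytosolic (of 16 with a window) and 1 mitochondrial (YARS2, of 14), against 4.46% of the 27305 genes in the table. All 7 cytosolic genes are on the list of ATF4 targets. The stretches of 30 bases that hold the element are shown because they let the genes that rose and fell be compared at this site. Each is written in the direction of TGATGNAA, with the match in capitals.
AARS, higher, chr16:70289675-70289704: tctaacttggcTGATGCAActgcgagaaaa
CARS, higher, chr11:3057407-3057436: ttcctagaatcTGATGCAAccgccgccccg
GARS, higher, chr7:30594834-30594863: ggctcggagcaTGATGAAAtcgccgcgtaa
MARS, higher, chr12:57488053-57488082: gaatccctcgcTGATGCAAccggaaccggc
YARS2, higher, chr12:32756076-32756105: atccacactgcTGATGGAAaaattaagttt
IARS, lower, chr9:92293692-92293721: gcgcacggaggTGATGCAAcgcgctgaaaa
NARS, lower, chr18:57621804-57621833: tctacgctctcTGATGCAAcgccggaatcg
TARS, not called, chr5:33440956-33440985: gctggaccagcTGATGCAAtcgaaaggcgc

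The same 8 letters, TGATGCAA, were thus present in genes that rose (AARS, CARS, MARS), in genes that fell (IARS, NARS) and in TARS, which was not called. In IARS and MARS the match began 13 and 4 bases before the start annotated in RefSeq, and in NARS it began 14 bases after it. For MARS this is not the start of the counted gene. Its RefSeq window, 57487818 to 57488117, lies inside the counted span of 57475445 to 57517569. Of the 7 cytosolic genes with the letters, 4 were higher and 2 lower (median log2 fold change 0.25). Of the 9 cytosolic genes with a window and without them, 5 were higher and 1 lower (median 0.28). Over all genes tested the shares were 24.5% higher and 25.1% lower. SARS, WARS and KARS, all called higher, were among the 9 cytosolic genes with a window and without the letters. The E-box CACGTG, a sequence bound by MYC and MAX, was found for 4 members (IARS, CARS2, EARS2 and MARS2) and 8.77% of all genes. MYC was at a log2 fold change of −0.03 (adjusted p = 0.771, edgeR), and was called lower with the GC and length offsets (−0.18, adjusted p = 0.0110, edgeR). A match is only a description of the letters in the window, and binding was not measured.

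Genes that act upstream of ATF4, and its targets outside tRNA charging, were examined next. No kinase of eIF2 was called higher. EIF2AK2, which senses double-stranded RNA, fell by 1.14 in log2 units (adjusted p = 1.99e-11, edgeR) and EIF2AK1, the heme-regulated kinase, by 0.40 (adjusted p = 9.91e-06, edgeR), while EIF2AK3, the kinase of the endoplasmic reticulum, was at 0.06 (adjusted p = 0.533, edgeR) and EIF2AK4, which senses uncharged tRNA, at 0.08 (adjusted p = 0.417, edgeR). With the GC and length offsets EIF2AK3 (0.16) and EIF2AK4 (0.14) were called higher. PPP1R15A, which directs dephosphorylation of eIF2, averaged 218.6 ± 9.99 CPM with siCtrl and 4011 ± 234.7 with siBAP18 (SD over 3 libraries), a rise of 4.20 on the log2 scale. In that list of 13 regulators 7 were higher (53.8%) and 2 lower (15.4%), and EIF2B2 (0.69) and EIF2B4 (0.67), subunits of the exchange factor for eIF2, were among the higher. Of 12 other ATF4 targets among transcription factors and stress genes, 9 were higher (75%) and 2 lower (16.7%), with a median of 0.76, again against 24.5% and 25.1% of all genes. ATF3 (4.27), DDIT3 (3.94), NUPR1 (1.40) and TRIB3 (1.35) had the smallest adjusted p, and all 4 are stress-induced regulators of transcription or signaling. Of the lower calls, VLDLR, a lipoprotein receptor, was lost with the GC and length offsets (from −0.34 to −0.12, adjusted p = 0.0600, edgeR), and DDIT4, an inhibitor of mTORC1, was kept (from −0.23 to −0.41).

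Genes for amino acid supply were counted in the same way. Of 15 genes of amino acid synthesis, 3 were higher (20%), 5 lower (33.3%) and 7 not called (median 0.05), against 24.5% higher and 25.1% lower among all genes. CBS, of the transsulfuration route, rose by 1.15, SHMT1, of serine and glycine exchange, fell by 0.62, and ALDH18A1 (0.29, proline synthesis) and GPT2 (0.34, alanine synthesis) rose. The other lower calls, of PSAT1, GOT1, PYCR1 and MTHFD2, were each lost in at least 1 of the fits that left out a library, and 2 genes of this list were lower without any one of the siCtrl libraries. With the GC and length offsets 3 were lower, as PSAT1 (−0.15, adjusted p = 0.0732, edgeR) and MTHFD2 (−0.01, adjusted p = 0.916, edgeR) were not called, while GOT1 went from −0.25 to −0.42 and PYCR1 from −0.22 to −0.39. In the same fit BCAT1, also on this list, went from 0.15 (not called) to 0.53 and was called higher (adjusted p = 0.00214, edgeR). CBS, ALDH18A1 and GPT2 were still higher, so more genes of the list were then higher than lower. ASNS, the asparagine synthetase and a standard ATF4 target, was at 12.7 ± 0.818 CPM in siCtrl cells and 14.1 ± 2.09 in siBAP18 cells (SD, n = 3 each) and was not called (adjusted p = 0.193, edgeR). Of 10 amino acid transporters, 2 were higher (20%) and 6 lower (60%), with a median of −0.29. The higher call of SLC7A1, an arginine and lysine carrier, was lost without siCtrl replicate 1 (adjusted p = 0.0961, edgeR) and without siBAP18 replicate 1 (adjusted p = 0.0545, edgeR). The lower call of SLC1A4, a carrier of neutral amino acids, was lost without siCtrl replicate 3 (adjusted p = 0.0608, edgeR) and without siBAP18 replicate 2 (adjusted p = 0.106, edgeR). SLC7A11, the cystine transporter, fell by 1.12, SLC7A5, of leucine uptake, by 0.57 and SLC38A2, of glutamine uptake, by 0.42, whereas SLC3A2, the partner chain of SLC7A5 and SLC7A11, rose by 0.49. With the GC and length offsets 2 transporters were higher and 4 lower. SLC7A11 was then at −0.67, and SLC38A2 (−0.08, adjusted p = 0.210, edgeR) and SLC38A1 (−0.03, adjusted p = 0.681, edgeR) were not called.

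**Figure D4:**
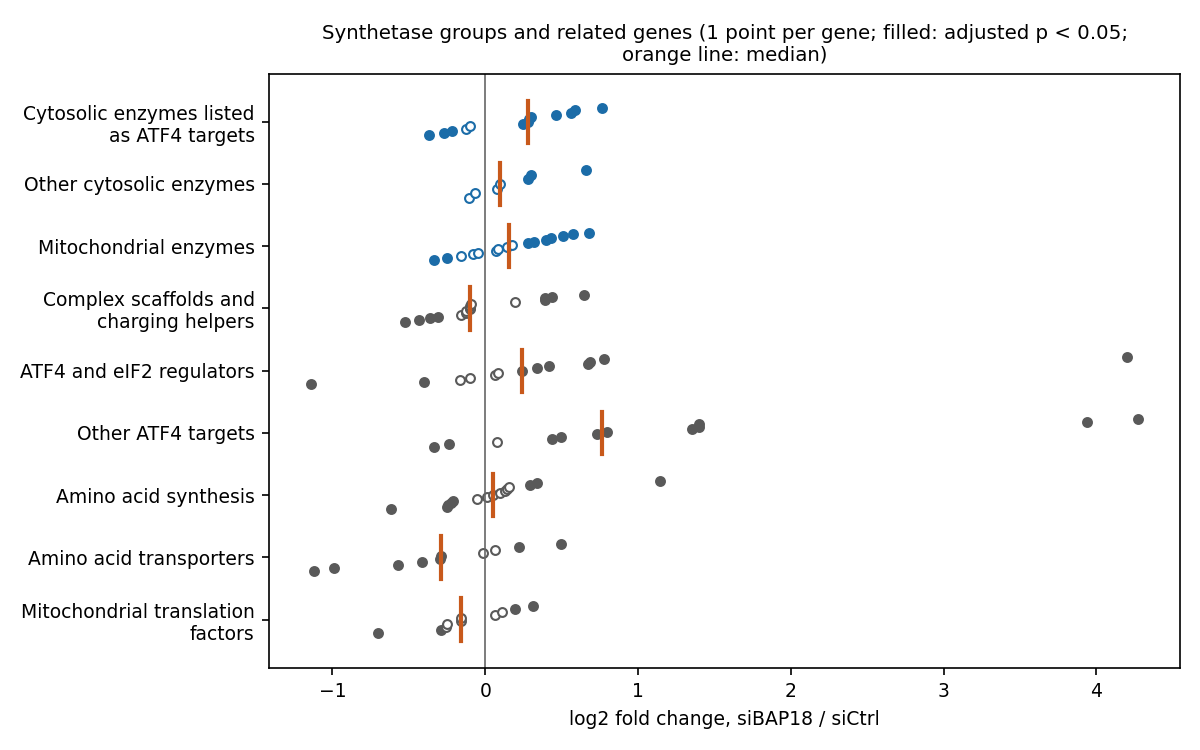
Log2 fold change (horizontal axis) of each gene in 3 groups of synthetases (blue) and 6 lists of related genes (gray), with filled points for an adjusted p under 0.05 and an orange line at the median. The synthetases lie between −0.37 and 0.77, whereas ATF3, DDIT3 and PPP1R15A lie near 4.

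Partners in tRNA charging were called about as often as all genes. Of 16 scaffolds and helpers, 4 were higher (25%), 4 lower (25%) and 8 not called (median −0.10), against 24.5% higher and 25.1% lower among all genes. AARSD1, a protein that clears wrong amino acids from alanine tRNA, rose by 0.64 (adjusted p = 7.25e-08, edgeR). TRNT1, which adds the CCA end to tRNAs, fell by 0.53 (adjusted p = 9.44e-06, edgeR), and XPOT, the export receptor for tRNA, fell by 0.36. With the GC and length offsets TRNT1 was at −0.18 (adjusted p = 0.0307, edgeR) and XPOT was not called (−0.10, adjusted p = 0.106, edgeR). SEPSECS was then called higher (0.55, adjusted p = 0.0134, edgeR) and DTD1 lower (−0.14, adjusted p = 0.0349, edgeR). The higher calls in that fit were AIMP1, AIMP2, AARSD1, PSTK, GATB and SEPSECS, and the lower calls TRNT1, DTD1 and DTD2. GATB, a subunit of the enzyme that makes mitochondrial glutaminyl-tRNA from the product of EARS2, rose by 0.39 (adjusted p = 7.66e-05, edgeR). Of 10 mitochondrial translation factors, 2 were higher and 2 lower (median −0.16), among them TUFM (0.31) and GFM1 (−0.70). Without siBAP18 replicate 2, 5 were lower, and in 4 of the 6 fits with a library left out only 1 was higher. Of 5 cytosolic elongation factor genes, EEF1D rose by 0.33 and EEF1A1 fell by 0.16, and the call of EEF1A1 was lost in at least 1 fit with a library left out (adjusted p up to 0.167, edgeR). In the small list for MYC and mTORC1, RPTOR (0.48) and MAX (0.28) rose, and MTOR (−0.65) and RPS6KB1 (−0.82) fell. The GC and length offsets brought TUFM to 0.13, GFM1 to −0.44, MAX to 0.17 and RPS6KB1 to −0.47, all still called. With the same offsets EEF1A1 was not called (−0.11, adjusted p = 0.1004, edgeR), and EEF2 (−0.28, adjusted p = 1.66e-04, edgeR) and EEF1G (−0.16, adjusted p = 0.0253, edgeR) were called lower.

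Fold changes of the synthetases moved with the GC content of their transcripts. GC content was read from the longest protein-coding GENCODE 29 transcript of each gene and ran from 41.2% (DARS) to 62.6% (VARS). Of 18 members with at least 50% GC, 14 were higher and 2 lower, and of 18 members below 50%, 4 were higher and 3 lower. Over the 16463 genes tested that matched a transcript by name, 34.7% of those with at least 50% GC were higher and 17.6% lower, and of those below 50% GC 17.5% were higher and 36.7% lower. The lower calls were thus 11.1% of the members with at least 50% GC and 16.7% of those below. Across the 36 members, Spearman's rho between GC content and log2 fold change was 0.49 (Pearson's r 0.46), and across all genes 0.29 (r 0.21). Within siBAP18, the difference between replicates 3 and 2 also followed GC content, with a rho of 0.78 over the members and 0.45 over all genes. These points share the same 6 libraries and genes are not independent, so the values are descriptive. Of the 12 members below 45% GC, siBAP18 replicate 3 was the lowest of the 6 libraries in 9, EPRS, NARS, IARS, LARS and TARS among them, but not in FARSB, RARS2 or WARS2. It was the lowest in 0 of the 24 members with more GC, a limit chosen after seeing the data.

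The fit with offsets for GC content and gene length called 54.6% of its 16463 genes, against 49.6% of 20776 in the main fit. It left 20 of the 23 calls, with KARS at 0.66, MARS at 0.69, SARS at 0.46, FARS2 at 0.26, VARS at 0.18 and EPRS at −0.22. FARSA (0.12, adjusted p = 0.0588, edgeR), IARS (−0.06, adjusted p = 0.332, edgeR) and YARS2 (0.13, adjusted p = 0.266, edgeR) were no longer called. On the other hand, RARS (0.27), RARS2 (0.27), FARSB (0.24) and DARS (0.13) were then called higher and QARS (−0.23) lower. The median of the cytosolic set was 0.21 in this fit.

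**Figure D5:**
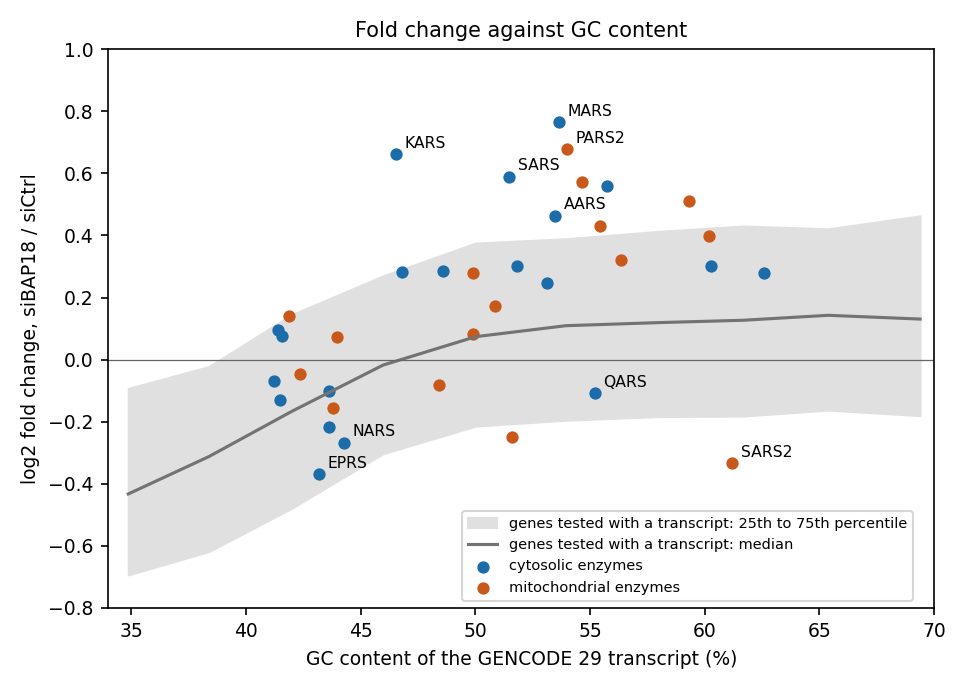
Log2 fold change (vertical axis) against transcript GC content in percent (horizontal axis) for the cytosolic (blue) and mitochondrial (orange) members, over the median (gray line) and the 25th to 75th percentile (shading) of the 16463 genes tested with a matched transcript. KARS stands above the shading at 46.6% GC, and SARS2 stands below it at 61.2%.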

How the data were processed

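The authors deposited raw counts per gene and RPKM values for 6 libraries of A549 cells. RPKM values in the deposited table equal the count divided by the listed gene length and by the column total, to within rounding. Libraries kept strand by dUTP per the labels. The submitters' processing notes name both hg38 and the mouse build GRCm38. The exon positions in the table fit the human build, which was used. The aligner, counting program, use of strand and handling of reads in bases shared by genes are not given in the sources used here.

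Counts were fitted in R 4.3.3 with edgeR 4.0.16 (filterByExpr, TMM scaling, quasi-likelihood test, Benjamini-Hochberg adjustment over 20776 genes). CPM uses the TMM-scaled library total. Standard errors are the absolute log2 fold change over the square root of F. On simulated counts over 20459 genes, 164 of 200 genes changed by a log2 fold change of 1 were called, and 7 unchanged genes. In the data 49.6% of all genes were called and no member changed by more than 0.77. The simulated rates therefore do not carry over to the calls given here. Limma 3.58.1 and DESeq2 1.42.0 served as alternatives, with Python 3.11.15 and scipy 1.17.1 for other steps and matplotlib 3.10.9 for plots. Replicates were not copies, since pairs within a group gave a chi-square of at least 3.94 for each degree of freedom. It was 3.94 to 4.56 for siCtrl pairs and 10.1 to 23.3 for siBAP18 pairs, with the most between siBAP18 replicates 2 and 3. The siBAP18 libraries thus differed more from each other, and the part of this in the calls was not tested. A gene with 0 counts could hold up to 3 counts, a floor for counting error only.

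The members, gene lists, pairs and motifs were chosen with earlier results of these data known. All members were named. Values by library were given for the called members with the 5 largest increases and the 5 largest decreases and for the 4 nearest to 0, and in other lists up to 4 genes with the smallest adjusted p were named, with ATF4, the eIF2 kinases and MYC. Other genes were named after their values were seen.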

Additional observations from a re-analysis of the deposited data

How the results depend on the processing

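The fits were repeated with 3 other scalings (DESeq2's size factors, the upper quartile and plain totals), with DESeq2's Wald test, without the filter or with 10 or more counts per library, with limma on RPKM at pseudocounts of 1 and 0.1, with a replicate block and with each library left out. Of the called members, 15 of 18 higher and 2 of 5 lower (EPRS and SARS2) were called in the same direction in all of them, including the added GC and length offsets. FARSA, YARS2, IARS and EARS2 lost their call in at least 1 fit. GARS (0.28, adjusted p = 0.0818, limma) and NARS (−0.26, adjusted p = 0.120, limma) lost theirs only in limma without a filter. The scalings moved the median of all genes by under 0.1.

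Requiring an absolute log2 fold change over 1 as well took every count of synthetases to 0. In the related lists 5 of the 12 other ATF4 targets stayed higher by this rule, with 1 regulator of ATF4 higher and 1 lower, 1 gene of amino acid synthesis higher and 1 transporter lower. In limma without the filter (pseudocount 1), 2 members were lower, 1 cytosolic and 1 mitochondrial. That fit called 22.1% of all its genes in either direction, against 49.6% in the main fit. With each library left out, between 4 and 8 members were lower, of which 2 to 5 cytosolic and 1 to 3 mitochondrial, with the most without siBAP18 replicate 2, where LARS (−0.26), TARS (−0.19) and IARS2 (−0.21) were also called lower. Between 17 and 21 members were higher, with the most without siBAP18 replicate 3, where RARS, LARS2 and RARS2 were called higher and QARS lower. The cytosolic median ranged from 0.20 without siBAP18 replicate 3 to 0.28 without siBAP18 replicate 2, and was 0.21 with the GC and length offsets. Values called with the opposite sign came only in that fit, for DARS (0.13), AIMP1 (0.17) and EEF1G (−0.16). The cause was not tested. MARS lay between 0.73 and 0.80 and KARS between 0.63 and 0.68 with each library left out.

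Replicate numbers do not mark shared cultures in the labels. Residuals of same-numbered libraries correlated at 0.0252, 0.120 and 0.0480, and each siBAP18 library correlated best with its own number. The next best values, with a siCtrl library of another number, were 0.00382, −0.0571 and 0.0398. All these correlations were weak, and they do not settle whether cultures were matched. With the replicate block, 18 members became 19 higher (LARS2 0.17, adjusted p = 0.0417) and 5 became 6 lower (IARS2 −0.16, adjusted p = 0.0225), from edgeR. MARS2 and PARS2, with 68 to 182 counts per library, had the least depth and the largest errors.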
